A study of Homo sapiens with 12 samples.

Results

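The genes described here were the aminoacyl-tRNA synthetases of the cytosol and the mitochondria, with the 3 scaffold proteins that hold part of them together. They were taken by symbol, in the older naming of the deposited tables (AARS rather than AARS1), which gave 39 of the 23292 genes listed. They comprised 20 genes for cytosolic enzymes, 16 genes for mitochondrial enzymes and 3 scaffold genes (AIMP1, AIMP2 and EEF1E1). RNA was sequenced from HEK293T cells, an immortalised human embryonic kidney line, after 6 h with DMSO vehicle or with AA263, AA263yne or AA263-5, each compound at 10 µM. Each of the 4 groups had 3 biological replicates, 12 samples in all, and the cells were labelled wild type in every group. The growth conditions in the labels name HEK293 rather than HEK293T. AA263 is a small molecule studied as an activator of ATF6, a stress sensor of the endoplasmic reticulum, and the others are its analogs.

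The value used is the authors' mean normalised value of a gene over all 12 samples, treated and untreated together, and it has no error or replicate number of its own. No value of a single sample was used, so the 3 compounds were not compared with vehicle here and no test was made. The tables used here do not give the depth of each library, and the study's methods give only a nominal one. Levels of different genes are given both as this mean value and as the value divided by the kilobases of coding sequence of the gene's canonical transcript (value per kb). It is not settled whether the deposited values already carry a division by length. Across 13127 coding genes with a mean value of at least 10, Spearman's rho of the mean value was -0.0073 with transcript length and 0.085 with coding length. Over the 39 genes rho with coding length was 0.49, over the 20 cytosolic enzymes 0.25 and over the 16 mitochondrial enzymes 0.61. These describe genes that share libraries. Where the scales give a different order, both are therefore printed. Exceptions are the levels by promoter motif and the rho with codon use, which were taken per kb alone.

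Aminoacyl-tRNA synthetases join each amino acid to its transfer RNA and so supply the ribosome. The cytosol and the mitochondrion use separate sets of these enzymes, all encoded in the nucleus, although GARS and KARS each serve both compartments from a single gene, and EPRS carries the enzymes for glutamate and proline on one chain. In human cells several cytosolic enzymes sit in a multi-synthetase complex built on AIMP1, AIMP2 and EEF1E1. Many cytosolic synthetase genes are known targets of ATF4, the transcription factor of the integrated stress response.

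Several promoters of cytosolic enzymes held the same short sequence, which the choice of genes did not use. Promoter windows from 250 bases before to 50 bases after the first listed start in RefSeq (GRCh38.p14) were held for 33 of the 39 genes, and YARS, VARS, DARS, LARS, AARS2 and VARS2 had no entry. The letters TGATGCAA, a core form of the element that ATF4 binds, were searched on both strands. They stood in the windows of 6 of 16 cytosolic enzymes (37.5%), 0 of 14 mitochondrial enzymes and 0 of 3 scaffolds. Of all 15842 coding promoters 0.669% held them, and of the 10681 whose gene had a mean value of at least 10, 0.477% did. In 5 of the 6 genes the match lay within 20 bases of the start. The 6 windows are printed because they carry the shared sequence, each read 5′ to 3′ along the gene's strand, with the match in capitals. TTGCATCA is TGATGCAA read on the opposite strand.
TARS, chr5:33440956-33440985, + strand: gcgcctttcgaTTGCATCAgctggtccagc
IARS, chr9:92293692-92293721, - strand: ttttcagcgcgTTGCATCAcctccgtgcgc
MARS, chr12:57488053-57488082, + strand: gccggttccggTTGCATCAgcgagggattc
CARS, chr11:3057407-3057436, - strand: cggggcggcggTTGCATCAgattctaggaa
NARS, chr18:57621804-57621833, - strand: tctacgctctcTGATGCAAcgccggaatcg
AARS, chr16:70289675-70289704, - strand: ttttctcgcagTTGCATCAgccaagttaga

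Counting the first transcribed base as 1, and bases before it backwards with a minus sign and no base 0, the match began at base 3 in TARS, -13 in IARS, -4 in MARS, -2 in CARS and 15 in NARS. In AARS it lay farther upstream, at -187. In 5 of these genes it was on the strand opposite to the gene, and in NARS on the gene's own strand. The wider form TGATGNAA, which takes in TGATGCAA, added no cytosolic enzyme and brought in YARS2, the mitochondrial tyrosine enzyme, with its match at -197. That wider form stood in 2.53% of all coding promoters and in 1.56% of those with a mean value of at least 10. A match is a description of letters in a window, and binding was not measured.

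The genes with TGATGCAA did not stand at one level. Their values per kb ran from 1167 for CARS to 8286 for TARS with a median of 4647 (n = 6 genes). The 10 cytosolic enzymes with a window and no match ran from 2586 to 11304 with a median of 5776. The ranges overlapped over most of their length.

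Other short motifs were searched on both strands of the same windows. The ETS core CCGGAAG stood in 8 of 16 cytosolic enzymes (50%) and 6 of 14 mitochondrial enzymes (42.9%), and in 1 of the 3 scaffolds, EEF1E1. It stood in 14.2% of all coding promoters and in 18.8% of those with a mean value of at least 10. Of the genes with TGATGCAA, NARS and CARS also held the ETS core. The NRF1 motif (GCGC, then AT, then GCGC) was found in 1 of 33 windows, that of MARS2, against 1.75% of all coding promoters. The E-box CACGTG was found in 4 of 33 windows (IARS, EARS2, CARS2 and MARS2), a share of 12.1% against 8.88% of all coding promoters.

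**Figure D1:**
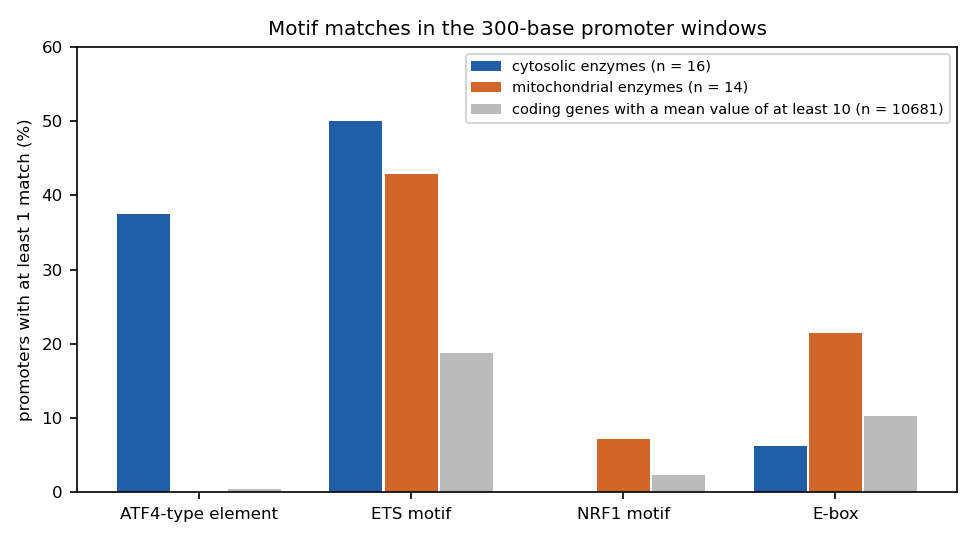
Share of promoter windows with at least 1 match (y axis, percent) for 4 motifs (x axis), where the ATF4-type element is TGATGCAA. Bars stand for 16 cytosolic enzymes, 14 mitochondrial enzymes and 10681 coding genes with a mean value of at least 10; the ATF4-type element stood in 37.5% of the cytosolic windows, in none of the mitochondrial ones and in 0.477% of the coding genes.

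HARS and HARS2, the cytosolic and mitochondrial histidine enzymes, are neighbours that start 85 bases apart and run in opposite directions on chromosome 5. Both windows held the same pair of ETS matches, at -82 and -8 counted from HARS2 and on opposite strands. They are shown because both enzymes share them, read along HARS2.
HARS2, chr5:140691362-140691390, + strand: agcaaggatgaCTTCCGGctatcgagtcg
HARS2, chr5:140691436-140691464, + strand: tccggctcctcCCGGAAGtgccgaagctg

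With this shared start region the mean values were 3949 for HARS and 841 for HARS2, 4.70-fold apart, and the values per kb were 2586 and 554, 4.67-fold apart. In all, 9 of the 33 genes with a RefSeq window (27.3%) had a coding neighbour whose listed start lay within 1000 bases and pointed the other way, against 11.2% of all 15842 coding genes and 14.4% of those with a mean value of at least 10. Besides HARS and HARS2 these were KARS with TERF2IP (108 bases), WARS with WDR25 (158 bases), AIMP2 with PMS2 (166 bases), EARS2 with UBFD1 (377 bases), SARS2 with MRPS12 (under 1000 bases), RARS2 with ORC3 (148 bases) and FARS2 with LYRM4 (57 bases). The synthetase or scaffold gene had the higher value on both scales beside TERF2IP, WDR25 and PMS2, and the lower one beside UBFD1, MRPS12, ORC3 and LYRM4. MRPS12, a protein of the mitochondrial ribosome, had a value per kb of 5334 beside 1284 for SARS2, the mitochondrial serine enzyme, while their mean values lay close, at 2208 and 1996. WDR25 had 389 per kb beside 6496 for WARS, the cytosolic tryptophan enzyme.

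All 39 genes had mean values above the median of all genes, which was 99.7. Together they held 0.778% of the summed value, although they were 0.167% of the genes listed. Of the 39, 23 stood at or above the 90th percentile of all genes. The highest mean value was 24409 for IARS, the cytosolic isoleucine enzyme, which ranked 162 of all genes. The lowest was 388 for PARS2, the mitochondrial proline enzyme, at the 62.1st percentile. IARS lies on chromosome 9 at 92210207 to 92293854 and has 34 exons, and PARS2 lies on chromosome 1 at 54756898 to 54764523 and has 2 exons (GENCODE 44, GRCh38).

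Per kb of coding sequence the order was led by YARS, the tyrosine enzyme, at 11596 and FARSA, the catalytic subunit of the phenylalanine enzyme, at 11304. SARS (serine) followed at 9906, GARS (glycine) at 8388 and TARS (threonine) at 8286. The same 5 genes led when the value was divided by transcript length, with FARSA first. The lowest 5 per kb of coding sequence were all mitochondrial. They were HARS2 at 554, MARS2 at 549, VARS2 at 544, FARS2 at 452 and PARS2 at 272. YARS stood 42.6-fold above PARS2. On the mean value IARS, GARS, YARS, TARS and FARSA led, in that order. The lowest 5 were then PARS2 at 388, FARS2 at 611, the scaffold EEF1E1 at 760, HARS2 at 841 and WARS2 at 944. VARS2 stood at place 29 of 39 on that scale. Neighbours in the order per kb of coding sequence lay close to each other, with 21 of 38 steps under 1.1-fold. The widest step was the 1.66-fold one from FARS2 to PARS2. Without replicate values, which neighbours differ beyond their spread cannot be said.

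**Figure D2:**
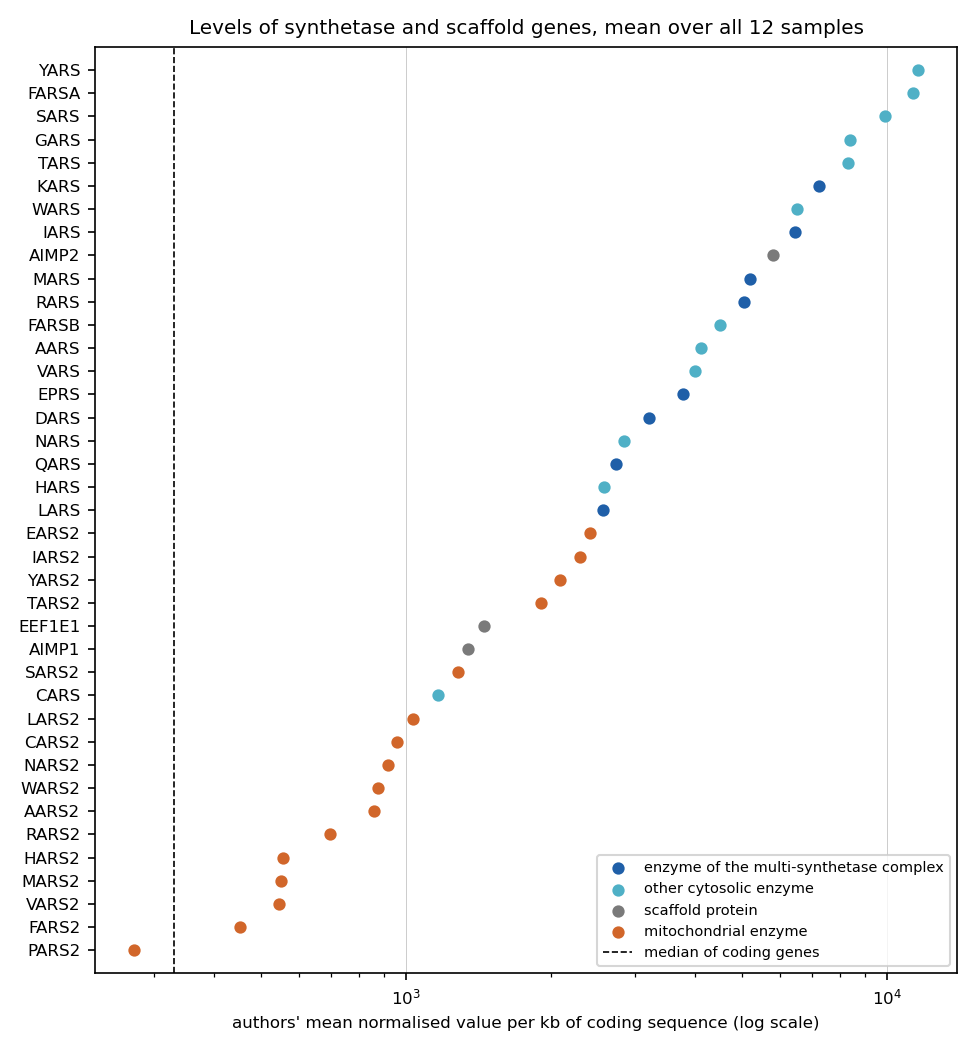
Mean normalised value per kb of coding sequence (x axis, log scale) of the 39 genes, 1 point a gene, ordered by level (y axis) and coloured by group. The dashed line is the median of coding genes, 329; 38 points lie to its right and PARS2, at 272, to its left, and 19 of the 20 cytosolic enzymes lie to the right of every mitochondrial enzyme.

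The cytosolic enzymes were higher than the mitochondrial ones on both scales. The median value per kb was 4780 over 20 cytosolic enzymes, with a range from 1167 to 11596, and 897 over 16 mitochondrial enzymes, with a range from 272 to 2413, a 5.33-fold difference of medians. On the mean value itself the medians were 12429 and 1677, 7.41-fold apart. At or above the 95th percentile of all genes stood 16 of the 20 cytosolic enzymes and 1 of the 16 mitochondrial enzymes, IARS2. The mitochondrial enzymes held 12.3% of the summed value of the 39 genes.

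The groups overlapped per kb of coding sequence through CARS alone, and more widely on the mean value, where 5 cytosolic enzymes (QARS, DARS, NARS, HARS and CARS) lay below IARS2, the highest mitochondrial enzyme. CARS, the cytosolic cysteine enzyme, was the lowest cytosolic enzyme on both scales, with a mean value of 2910 and a value per kb of 1167. Of the mitochondrial enzymes, 5 stood above it per kb and 4 on the mean value. Per kb these were EARS2 (glutamate) at 2413, IARS2 (isoleucine) at 2302, YARS2 (tyrosine) at 2086, TARS2 (threonine) at 1913 and SARS2 (serine) at 1284. EARS2 also charges the mitochondrial glutamine tRNA, which an amidotransferase then converts. The high place of EARS2 was lost on transcript length, where it had 729 per kb because its transcript is 5196 bases long with a coding part of 1569 bases.

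For 13 amino acids a single cytosolic gene and a single mitochondrial gene among the 39 could be paired, each serving that amino acid alone. The enzymes for phenylalanine, with 2 cytosolic subunits, and for glutamate and proline, joined in EPRS, are given apart. The cytosolic gene was higher in 13 of 13 pairs, on the mean value, per kb of coding sequence and per kb of transcript. Per kb of coding sequence the difference ran from 1.22-fold to 9.45-fold with a median of 4.77-fold. On the mean value it ran from 1.80-fold to 14.3-fold with a median of 4.70-fold. No pair shared a 50-base stretch of transcript on the same strand. Exons of HARS, taken over all its transcripts, overlapped the canonical HARS2 transcript by 83 bases on the opposite strand, 3.36% of its length. The canonical HARS transcript overlapped no exon of HARS2.

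Among these 13 pairs the widest difference was that of the methionine enzymes, with 5190 per kb for MARS and 549 for MARS2. The mitochondrion uses methionine for both starting and extending chains, with a single transfer RNA. Serine (7.71-fold), tryptophan (7.43-fold), valine (7.34-fold) and arginine (7.28-fold) came next per kb and lay close together. On the mean value the same 4 pairs differed by 7.65-fold, 9.72-fold, 8.73-fold and 8.31-fold, in another order.

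At the other end stood cysteine, leucine and isoleucine. CARS had 1167 per kb and CARS2 958, 1.22-fold apart, the narrowest pair on every scale. LARS had 2573 and LARS2 1035, 2.49-fold apart. IARS had 6447 and IARS2 2302, 2.80-fold apart, IARS2 having the highest mean value of the mitochondrial enzymes at 6988.

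**Figure D3:**
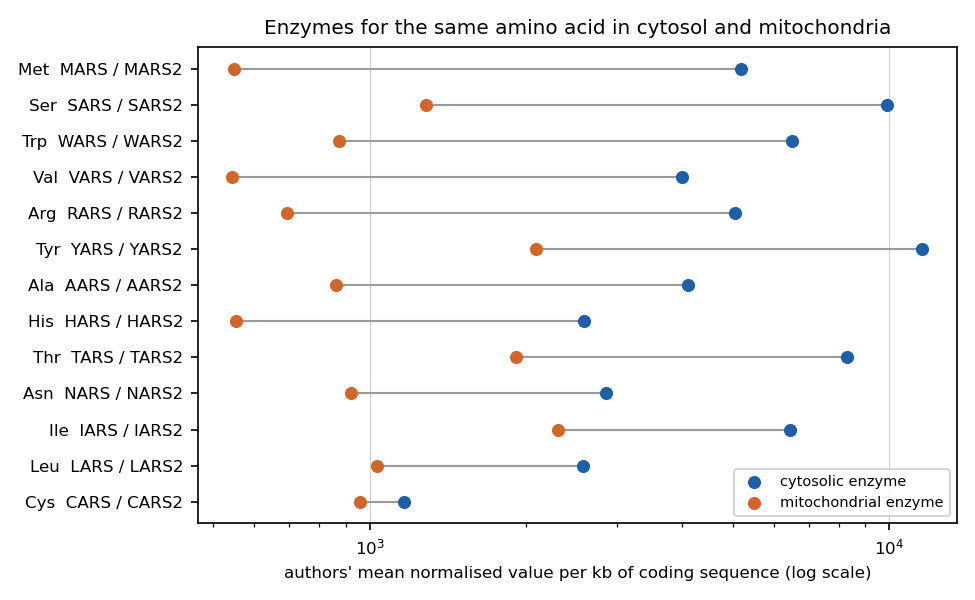
Value per kb of coding sequence (x axis, log scale) of the cytosolic and the mitochondrial enzyme for 13 amino acids (y axis), joined by a line and ordered by their ratio. The cytosolic point lies to the right in 13 of 13 pairs, from 9.45-fold for methionine to 1.22-fold for cysteine.

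The spread of levels among enzymes of the multi-synthetase complex, set against the other cytosolic enzymes, depended on CARS and on the scale. The 8 complex enzymes had values per kb from 2573 for LARS to 7227 for KARS, a 2.81-fold range with a median of 4411. The 12 genes for other cytosolic enzymes ran from 1167 for CARS to 11596 for YARS, a 9.93-fold range with a median of 5500. On the mean value the ranges were 5.08-fold and 6.39-fold. Without CARS the other cytosolic enzymes spanned 4.48-fold per kb and 4.71-fold on the mean value, the latter narrower than the complex. The complex with its scaffolds had a median at 0.685 of that of the free enzymes per kb of coding sequence and at 0.982 per kb of transcript. For the enzymes alone the direction turned per kb of transcript, with medians of 4116 for the complex and 3581 for the free enzymes. EPRS, which serves 2 amino acids with the longest coding sequence of the 39 (4536 bases), had 3768 per kb and a mean value of 17089. Per kb it stood 1.56-fold above EARS2 and 13.8-fold above PARS2 (4.51-fold and 44.03-fold on the mean value), its mitochondrial counterparts for glutamate and proline.

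The scaffolds differed among themselves. AIMP2, which joins several of the enzymes, had a value per kb of 5806 and a mean value of 5574. AIMP1 had 1348 per kb and a mean value of 1262. EEF1E1 had 1456 per kb and a mean value of 760. AIMP2 was thus 4.31-fold above AIMP1 per kb, 4.42-fold above it on the mean value and 10.2-fold above it per kb of transcript. Its reads may overlap a neighbour's, since 44.4% of its transcript lies opposite exons of EIF2AK1, a kinase gene with a mean value of 5072. Whether the counting used the strand is not stated.

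The subunits of the cytosolic phenylalanine enzyme work together in equal numbers but did not have equal values. FARSA, the catalytic subunit, had 11304 per kb and FARSB 4504, a 2.51-fold difference, and their mean values, 17228 and 7959, differed 2.16-fold. On transcript length the ratio was 8.08, because the FARSB transcript is 6761 bases long. FARS2, which works alone in the mitochondrion, had 452 per kb, and FARSB stood 9.97-fold above it, or 13.02-fold on the mean value and 3.23-fold per kb of transcript.

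Synthetases belong to class I or class II by the fold of the catalytic part. The order of the classes differed between compartments and, with both compartments together, between scales. The median value per kb was 2357 over 18 class I genes and 2848 over 17 class II genes, with EPRS, which holds one part of each class, left out of both. On the mean value the order turned, with 5078 for class I and 4682 for class II. Among cytosolic genes class II had the higher median, 5866 against 5055 per kb and 12429 against 10008 on the mean value. Among mitochondrial genes class I had the higher one, 958 against 860 per kb and 1734 against 1316 on the mean value. Per kb of transcript the order within each compartment was the same. Both classes had mitochondrial genes at the bottom, and at the top stood YARS (class I) and FARSA (class II) per kb, or IARS and GARS on the mean value.

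Other genes of translation gave the surroundings of these levels. Factors of cytosolic elongation had a median value per kb of 28287 over 5 genes, from 7018 for EEF1D to 79856 for EEF2, which moves the ribosome along the message. On the mean value EEF1B2 was the lowest of these 5 at 8328, with EEF1D at 13622. YARS, FARSA, SARS, GARS and TARS stood above EEF1D both per kb and on the mean value. KARS did so per kb alone, and IARS, EPRS, VARS and MARS on the mean value alone. In the mitochondrion the elongation factors had a median value per kb of 1831 over 4 genes. TUFM, which brings charged tRNA to the ribosome, lay far above the others at 16858. GATB, QRSL1 and MTFMT, which modify charged mitochondrial tRNAs, had 745, 666 and 646 per kb, within the range of the mitochondrial enzymes. GATC, a partner of GATB and QRSL1, was listed far higher at 22645 per kb, above TUFM. On the mean value it had 9239, below TUFM at 23012. The initiation factors MTIF2 and MTIF3 had 1252 and 1255 per kb, but 2730 and 1047 on the mean value. Of the genes that process or modify tRNA, ELAC2, which trims the 3′ end, had 3596 per kb, PUS1, a pseudouridine synthase, had 2065, TRMU had 1603 and TRNT1, which adds the CCA end, had 566.

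The supply of each cytosolic synthetase was set beside the use of its amino acid. Codons of 15876 coding transcripts were counted, each transcript weighted by its value per kb. Leucine took the largest share, 9.17%, and tryptophan the smallest, 1.03%. LARS, the leucine enzyme, was low among the cytosolic enzymes, at place 19 of 20 amino acids with 2573 per kb, although on the mean value, 9078, it was at place 14 of the 20 cytosolic enzymes. YARS ranked first in level per kb for tyrosine, which ranked 16 in use with 2.73% of codons. WARS stood at place 6 in level per kb for tryptophan, the least used. On the mean value YARS was at place 3 and WARS, with 9179, at place 13 of all the genes described here. CARS was low in level, at place 20, for cysteine, which ranked 19 in use with 1.69%. Across the 20 amino acids Spearman's rho of codon share and enzyme level per kb was 0.077. Without glutamate and proline, which share EPRS, it was 0.14 (n = 18). The weights and the enzyme levels come from the same libraries, and FARSB stood for the phenylalanine enzyme as its lower subunit. The rho values describe these amino acids on the per kb scale only, and rho on the mean value was not computed.

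**Figure D4:**
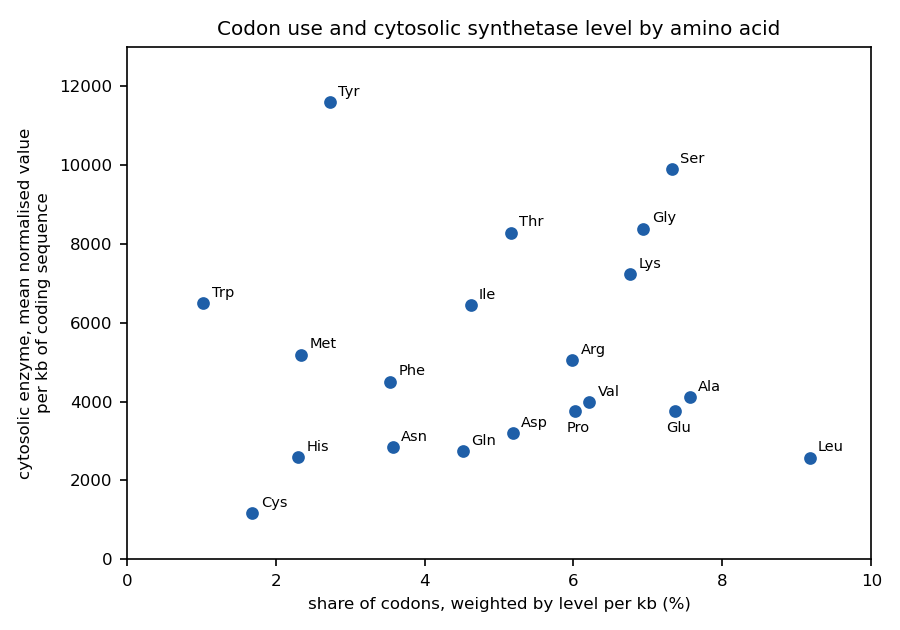
Share of codons over 15876 transcripts, weighted by value per kb (x axis, percent), and value per kb of the cytosolic enzyme (y axis) for 20 amino acids, 1 point each. Leucine lies lowest among the much used amino acids at 9.17% and 2573 per kb, and tyrosine highest at 2.73% and 11596 per kb.

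Some of the 39 genes may share reads with others, which bears on their values. Of the 39, 28 had no 50-base stretch in common with another GENCODE 44 gene and 3 had over 10% of their stretches in common. For VARS2 97.3% of the stretches also lay in an overlapping long non-coding gene, for SARS2 77.0% lay in an overlapping coding gene, and for EEF1E1 35.0% lay mostly in the readthrough gene EEF1E1-BLOC1S5, which had its own mean value of 1536. Exons of 15 genes overlapped a gene on the opposite strand. MARS overlapped the stress gene DDIT3 by 65 bases, 2.32% of its transcript, and DDIT3 had a mean value of 349. No listed gene was matched to the genes overlapping VARS2 and SARS2 in this way. How such reads were assigned is not stated, so the values of VARS2, SARS2 and EEF1E1 are uncertain.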

How the data were processed

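Per the labels, poly(A) RNA of 12 samples was made into strand-specific libraries, while the study's methods name whole transcriptome libraries. Alignment by the authors was in SeqManPro (DNAstar Lasergene), quantification in ArrayStar by QSeq, and DESeq2 was their tool for setting the treated groups against vehicle. The submitters' processing notes name DESeq2 1.40.1 and the builds GRCh38 and GRCh37. The methods say that RPKM values entered the fit. The 3 deposited tables list 23292 symbols. Their deposited signal is the authors' mean normalised value over all samples and is identical in the 3 tables. The other columns (fold changes, errors, statistics, p-values) hold the authors' comparisons and were not used, so no test was made.

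All 39 symbols were matched to GENCODE 44, 18 under newer names. Of all symbols 76.9% matched, and 15885 were coding genes with a length. Coding length is that of the canonical transcript without the stop codon. All 39 genes are described, with the highest and lowest 5 named first. Shared 50-base stretches were counted over all GENCODE 44 transcripts. Python 3.11.15, pandas 2.3.3 and scipy 1.17.1 were used, and the functions were tested on simulated data. The genes and lists were chosen with earlier results of these data known, and the motifs, shared stretches, neighbours and codon use after the values were seen.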

Additional observations from a re-analysis of the deposited data

How the results depend on the processing

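The higher level of cytosolic over mitochondrial enzymes kept its direction in every setting run, and its size moved. The ratio of medians per kb of coding sequence was 5.33. It was 7.41 without division by length, 5.03 with means in place of medians, 4.80 without GARS and KARS and 6.75 with transcript length. Leaving out SARS2 and VARS2 takes a gene from each side of the mitochondrial median and could not move it. The ratio of the complex to the free cytosolic synthetases was 0.685, and it was 0.671 without division by length, 0.802 for the enzymes alone, 0.650 with means and 0.982 with transcript length. The ratio of class I to class II per kb of coding sequence was 0.828, and it was 0.862 for cytosolic genes alone. With both compartments together it turned to 1.08 without division by length and to 1.07 with transcript length. The median value per kb of the 39 genes fell from 2573 to 1552 with transcript length, and their median percentile from 93.4 to 90.2 among genes with a mean value of at least 10. With all listed starts in place of the first, TGATGNAA stood in 7 cytosolic promoters in place of 6, GARS being added, against 3.604% of all coding genes, and TGATGCAA stood in 6, against 0.903%. The settings with transcript length for the 3 ratios, without SARS2 and VARS2, and with all starts were chosen after the data were seen. No paired analysis was possible because no value of a single sample was used. For the same reason the settings planned for the compounds against vehicle (leaving out replicates, another test, no filter) were not run. The tables used here give no read totals of single libraries, so the counting error of low genes such as PARS2 was not computed.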
